A study of Mus musculus with 2 samples.

Results

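The enteroendocrine cells of the colon are scattered hormone-producing cells of the epithelium. A set of 10 of their genes was followed between RNA of colon from IL-9 transgenic mice and of colon from wild-type mice. The genes were chosen by name, with earlier results of these data known. They are those whose annotated symbol was Gcg, Pyy, Insl5, Sst, Cck, Tac1, Tph1, Chga, Chgb or Neurod1. The array held 11 probe sets for these 10 genes, of 22626 non-control probe sets and 12393 genes that the platform annotation named by 1 symbol. Each gene had 1 probe set except Neurod1, which had 2.

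The IL-9 transgenic mice carried an added gene for interleukin-9, which T helper cells and type 2 innate lymphoid cells secrete, and the other mice were wild type. The strain is written FVB in the sample labels and TVB in the series' design text. The title of the wild-type sample is FVB, and that of the transgenic sample is Tg5. RNA from a piece of distal colon was pooled from 4 mice of each genotype, and each pool was hybridised to 1 Affymetrix array. All mice were kept under specific pathogen-free conditions; their age and the promoter that drives the transgene are not given in the sources used here. With 1 array per genotype there was no replicate, no test was possible, and every difference below is a difference between these 2 pools.

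Enteroendocrine cells arise from crypt progenitors under a cascade of transcription factors in which NEUROD1 acts late. They store peptides or amines in dense-core granules together with granins, and release them toward blood vessels and nerves when luminal nutrients or mechanical stimuli reach them. In the colon the main kinds are L cells, which make the peptides encoded by Gcg, Pyy and, in the distal part, Insl5, enterochromaffin cells, which make serotonin through the enzyme encoded by Tph1 and often tachykinins encoded by Tac1, and D cells, which make somatostatin (Sst).

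The 3 L cell hormone genes had lower intensities in the transgenic pool by similar ratios, and Tac1 and Tph1 had ratios in opposite directions. The sequence upstream of the annotated start of these 5 genes is therefore shown first. The E-box CANNTG, the kind of site that NEUROD1 and related basic helix-loop-helix factors bind, was searched in the 250 bases before each start, and it reads the same on both strands. Its matches are in capitals. Where RefSeq gives several starts, the first of its table is shown, which is the one farthest upstream. The sequences are from RefSeq, build GRCm38.p6, and run 5′ to 3′ on the gene's strand.
Gcg, chr2:62483654-62483903, minus strand: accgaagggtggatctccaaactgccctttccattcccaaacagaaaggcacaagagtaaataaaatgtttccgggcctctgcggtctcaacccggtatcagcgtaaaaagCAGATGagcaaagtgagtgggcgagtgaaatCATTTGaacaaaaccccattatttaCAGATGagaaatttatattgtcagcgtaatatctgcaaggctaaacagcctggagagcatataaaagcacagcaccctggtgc
Pyy, chr11:102107833-102108082, minus strand: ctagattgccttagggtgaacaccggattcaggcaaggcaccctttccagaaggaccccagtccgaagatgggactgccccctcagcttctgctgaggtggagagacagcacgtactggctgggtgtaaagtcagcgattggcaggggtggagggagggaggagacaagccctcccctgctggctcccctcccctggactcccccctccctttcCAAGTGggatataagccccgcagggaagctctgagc
Insl5, chr4:103027272-103027521, minus strand: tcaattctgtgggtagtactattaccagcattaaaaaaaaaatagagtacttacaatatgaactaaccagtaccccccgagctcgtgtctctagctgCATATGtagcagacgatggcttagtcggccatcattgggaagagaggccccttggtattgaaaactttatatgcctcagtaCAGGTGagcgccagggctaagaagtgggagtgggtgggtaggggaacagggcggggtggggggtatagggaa
Tac1, chr6:7554811-7555060, plus strand: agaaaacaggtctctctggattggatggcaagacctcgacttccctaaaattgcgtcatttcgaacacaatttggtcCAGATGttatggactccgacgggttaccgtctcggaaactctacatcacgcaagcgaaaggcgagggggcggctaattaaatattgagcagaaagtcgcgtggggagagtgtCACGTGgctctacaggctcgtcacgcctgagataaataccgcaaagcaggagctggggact
Tph1, chr7:46672538-46672787, minus strand: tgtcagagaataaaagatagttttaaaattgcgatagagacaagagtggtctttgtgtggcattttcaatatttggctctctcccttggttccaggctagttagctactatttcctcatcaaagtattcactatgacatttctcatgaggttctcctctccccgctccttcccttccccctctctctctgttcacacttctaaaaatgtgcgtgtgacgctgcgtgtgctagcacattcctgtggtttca

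In these windows Gcg had 3 E-boxes, Insl5 and Tac1 had 2 each, Pyy had 1 and Tph1 had 0. All 10 genes had an entry in the RefSeq promoter table, with 13 windows in all because Pyy, Insl5 and Tph1 have 2 starts. An E-box was in 11 of the 13 windows and in 66.2% of the 32851 windows of the whole table. The TATA box letters TATAAA, searched on both strands, were found for Gcg and Insl5, in 3 of the 13 windows, against 12.4% of all windows. In the Insl5 window shown, the match is on the opposite strand only. The cyclic AMP response element TGACGTCA, its own reverse complement, was found for Sst and Chgb, and it is in 1.55% of all windows. Each motif was counted on its own, also where it shared bases with another, and a match describes the letters only.

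Values are MAS5 intensities on a linear scale, as the authors deposited them. Any intensity under 19.8 was raised to that floor, which is the 40th percentile over the non-control probe sets. A gene is called measured below if either array read it above the floor. Of the 10 genes 9 were measured, 8 of them on both arrays, against 8346 measured genes in all. Il9 itself had 862 in transgenic colon and 5.14, under the floor, in wild type. The median intensity was 34.2 on the transgenic array and 34.0 on the wild-type array. Genes of colon identity were present in both pools, with Hoxb13, a marker of the distal end of the gut, at 1236 in transgenic and 1255 in wild-type colon. General epithelial genes gave no overall shift, with a median log2 ratio of 0.04 over 15 measured genes, against 0.04 over all measured genes.

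None of the 8 enteroendocrine genes above the floor on both arrays differed by 2-fold. Neurod1 was under the floor in transgenic colon and at least 1.17-fold lower, so whether it reached 1.25-fold or 2-fold is not known. With Neurod1 counted at the floor, 0 of 9 were at least 2-fold higher and 0 of 9 at least 2-fold lower in transgenic colon. Over all measured genes these shares were 0.767% and 0.611%. The log2 ratio (transgenic over wild type) lay below 0 for 7 of the 9, against 44.0% of all measured genes, and above 0 for 2, against 56.0%. The median over the 9 was −0.28, against 0.04 over all measured genes, and the mean was −0.17. A smaller step, a fold of at least 1.25, was reached in the lower direction by 4 of 9 (Tac1, Insl5, Gcg and Chgb), against 10.9% of all measured genes. In the higher direction it was reached by 1 of 9 (Tph1), against 14.6%. In bulk RNA of 1 pool per genotype, fewer endocrine cells, less RNA per cell and variation between pools cannot be told apart.

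**Figure D1:**
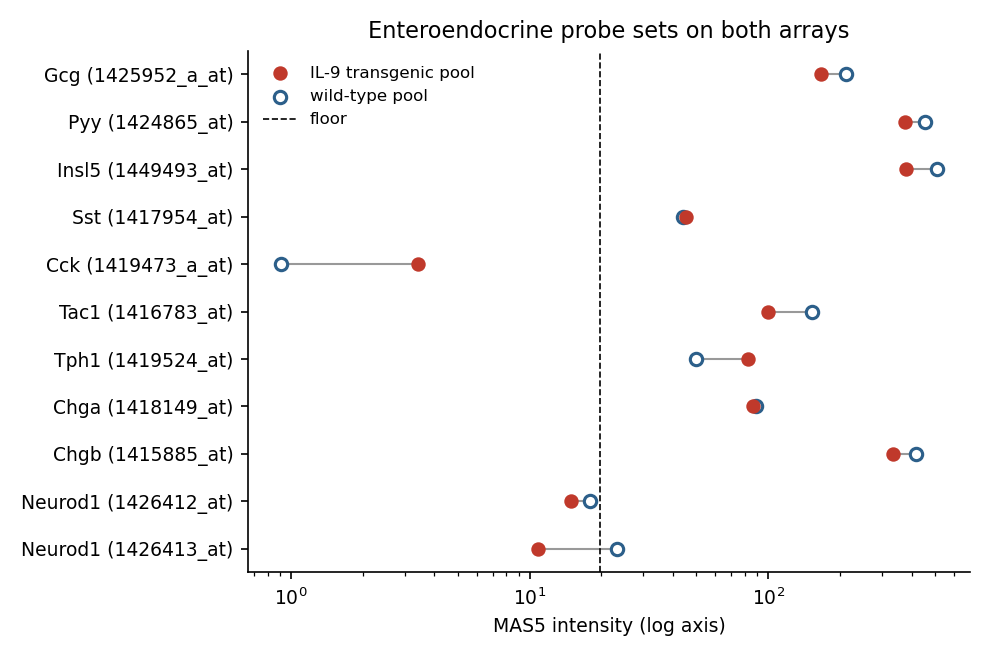
MAS5 intensity (log axis) of the 11 enteroendocrine probe sets in the IL-9 transgenic pool (filled) and the wild-type pool (open), with the floor of 19.8 as a dashed line. Gcg, Pyy, Insl5, Tac1 and Chgb lie lower in transgenic colon, Tph1 lies higher, Sst and Chga nearly coincide, and Cck lies under the floor in both pools.

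All 3 L cell hormone genes were lower in the transgenic pool. Gcg encodes proglucagon, which L cells cut into the incretin GLP-1 and the growth-promoting peptide GLP-2, and its intensity was 166 in transgenic and 211 in wild-type colon (probe set 1425952_a_at). The ratio was −0.34 on the log2 scale, or 1.27-fold lower, and 9.99% of all measured genes had a ratio as low or lower. Pyy encodes peptide YY, which slows gut transit and lowers appetite. Its intensity was 374 in transgenic and 452 in wild-type colon (1424865_at), 1.21-fold lower with a log2 ratio of −0.28. Insl5 encodes insulin-like peptide 5, a relaxin-family hormone made by L cells of the distal colon. It had 378 in transgenic and 509 in wild-type colon (1449493_at), 1.34-fold lower with a log2 ratio of −0.43, and 6.16% of measured genes were as low or lower. The 3 hormones differed little from each other in their ratios, and each rests on a single probe set.

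No replicate shows how far such ratios vary between pools. As a technical measure, 2847 genes were read by more than 1 usable probe set, and within such a gene the log2 ratios had a pooled SD of 0.28, which holds no spread between mice. Insl5, Gcg, Chgb, Tac1 and Tph1 had ratios larger than that SD in size, 5 of 9, and 31.5% of all measured genes did. Pyy lay just within it. Among the 1458 genes with a mean intensity from 200 to 500 the central 95% of log2 ratios lay between −0.43 and 0.58, so Insl5 lay close to the lower end, and Pyy and Chgb lay inside. Among the 1729 genes from 100 to 200 the same central share lay between −0.54 and 0.57, with Gcg inside and Tac1 outside.

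Somatostatin was nearly equal in both pools and cholecystokinin was not measured. Sst, the inhibitory hormone of D cells that is also made by enteric neurons, had 45.2 in transgenic and 43.8 in wild-type colon (1417954_at), a log2 ratio of 0.05. Cck, the hormone of small intestinal I cells that drives bile and pancreatic secretion, had 3.41 in transgenic and 0.909 in wild-type colon (1419473_a_at). Both Cck values were far under the floor, so no ratio is given.

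The pair of enterochromaffin genes had ratios in opposite directions. Tac1 encodes the precursor of substance P and neurokinin A, and it had 99.5 in transgenic and 153 in wild-type colon (1416783_at). It was 1.54-fold lower, a log2 ratio of −0.62, and 2.35% of measured genes were as low or lower. Tph1 encodes tryptophan hydroxylase 1, the rate-limiting enzyme of serotonin synthesis outside the nervous system, and it had 82.0 in transgenic and 49.8 in wild-type colon (1419524_at). It was 1.64-fold higher, a log2 ratio of 0.72, and 2.26% of measured genes were as high or higher. Among the 2019 genes with a mean intensity from 50 to 100 the central 95% of log2 ratios lay between −0.58 and 0.74, and Tph1 lay inside it, close to the upper end.

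**Figure D2:**
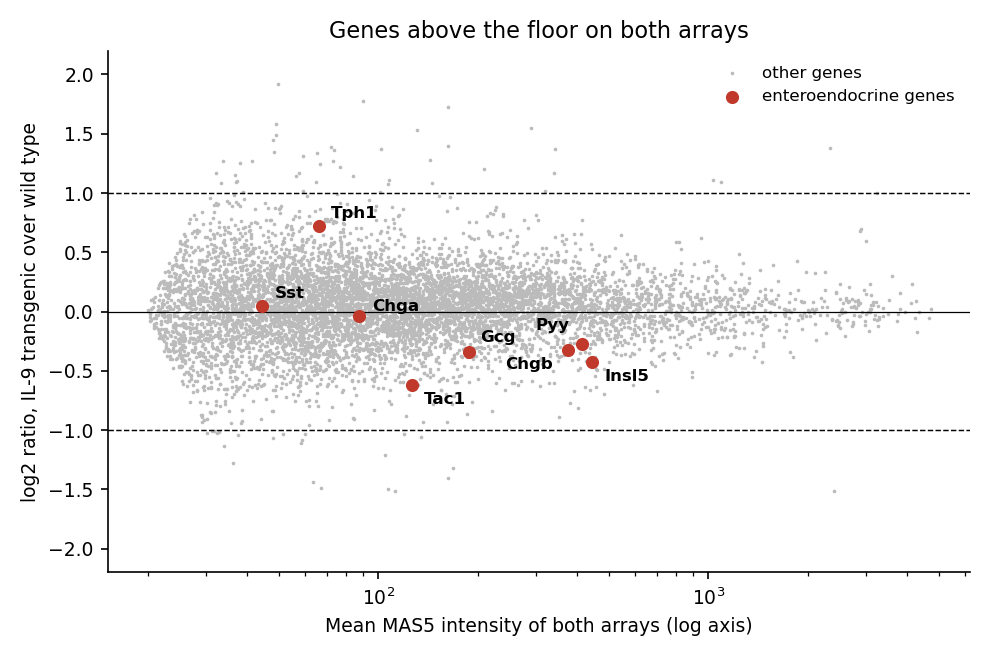
Log2 ratio of IL-9 transgenic over wild type against the mean MAS5 intensity of both arrays (log axis) for genes above the floor on both arrays, with the 8 enteroendocrine genes in red and 2-fold as dashed lines. The axis leaves out 6 of the 7770 genes, whose ratios are larger. Tac1 lies near the lower edge and Tph1 near the upper edge of the cloud, and no enteroendocrine gene reaches 2-fold.

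Both genes have other sources in the gut wall. Mouse mast cells also express Tph1, and of 10 measured mast cell genes 8 had a log2 ratio above 0 and 5 were at least 2-fold higher. Before the floor, the 13 mast cell genes on the array summed to 3426 in transgenic and 310 in wild-type colon. Mcpt1, at 1297 in transgenic colon, and Mcpt2 made up most of the transgenic sum. The 2 measured genes with log2 ratios below 0 were Tpsab1 at −0.30 and Gata2 at −0.18. The chymase gene Mcpt2 had 1472 in transgenic and 14.6 in wild-type colon, under the floor, which makes it at least 74.3-fold higher. Cpa3, the mast cell carboxypeptidase, had 158 in transgenic and 32.0 in wild-type colon. Ms4a2, Gata1 and Hdc were under the floor in both pools. The part of mast cells in the Tph1 ratio was not tested.

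Tac1 is also expressed by enteric neurons. Of 12 measured genes of enteric neurons and glia 9 had a log2 ratio below 0, with a median of −0.16, and none was at least 2-fold higher or lower. Before the floor, the 19 genes of that list on the array summed to 769 in transgenic and 940 in wild-type colon. Vip made up the largest part of both sums. The neurofilament gene Nefl had a log2 ratio of −0.89 (20.4 in transgenic, 37.9 in wild type), the nitric oxide synthase gene Nos1 −0.70, and Vip, a neuropeptide of inhibitory motor neurons, −0.31 (340 in transgenic, 423 in wild type). Gap43 was at the floor in transgenic colon and at least 1.33-fold lower. Elavl3, Ret, Syp, Npy, Tubb3, S100b and Gfap were under the floor in both pools. Of 7 measured neuropeptide genes beside the enteroendocrine ones, Vip included again, 4 had ratios below 0 and 3 above. Nmu had 0.46, and Calcb, at the floor in wild type, was at least 1.40-fold higher. The part of neurons in the Tac1 ratio was not tested.

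The granin genes Chgb and Chga differed from each other. Chgb, for chromogranin B, a granule matrix protein of endocrine cells and neurons, had 333 in transgenic and 417 in wild-type colon (1415885_at). It was 1.25-fold lower, a log2 ratio of −0.32. Chga, for chromogranin A, the most used marker of enteroendocrine cells, had 86.5 in transgenic and 88.5 in wild-type colon (1418149_at), a log2 ratio of −0.03. Thus Chgb had the lower intensity in transgenic colon, and Chga was nearly equal in both pools. Of other granin genes, Scg2 had a log2 ratio of −0.17, Scg3 −0.18 and Scg5 0.07.

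Neurod1 was close to the floor. One of its probe sets (1426413_at) had 10.9 in transgenic and 23.2 in wild-type colon, so it was above the floor in wild type and at least 1.17-fold lower in transgenic colon. The other (1426412_at) had 14.9 in transgenic and 17.97 in wild-type colon and stayed under the floor in both. Both probe sets read lower in the transgenic pool, at levels where MAS5 ratios are unstable.

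The genes that make, pack and sense these hormones were read from lists in which the 10 genes above are not counted again. Of 13 measured granin, processing and granule genes 9 had a log2 ratio below 0, with a median of −0.18, and 1 was at least 2-fold lower. That gene was Rab3b, a GTPase of regulated secretion, with 63.0 in transgenic and 146 in wild-type colon, 2.31-fold lower. Cpe, the carboxypeptidase that trims prohormones after cleavage, had 475 in transgenic and 611 in wild-type colon, a log2 ratio of −0.36. The convertase inhibitor gene Pcsk1n had 34.7 in transgenic and 25.6 in wild-type colon, a log2 ratio of 0.44, and Rab27a, a granule-docking GTPase gene, had 0.37. These genes are also used by neurons and other secretory cells.

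In the serotonin pathway, 7 genes beside Tph1 were measured, 6 with a log2 ratio above 0 and 1 below. The exception was Ddc, the decarboxylase that completes serotonin synthesis and acts on other amines too, with 358 in transgenic and 557 in wild-type colon and a log2 ratio of −0.64. Slc18a1, the vesicular monoamine transporter of enterochromaffin cells, had 24.3 in transgenic colon and was under the floor in wild type at 11.9, at least 1.23-fold higher. Gch1, which makes the cofactor of tryptophan hydroxylase, had 0.24, although its other measured probe set had −0.04. The serotonin reuptake transporter gene Slc6a4 had 53.2 in transgenic and 49.3 in wild-type colon, and was named after its values were seen. None of the 7 reached 2-fold, and Tph1 and Ddc, enzymes of consecutive steps, had ratios of opposite sign.

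Transcription factors listed for endocrine differentiation beside Neurod1 split evenly by the probe set that stood for each gene. Of 8 measured, 4 had ratios above 0 and 4 below, with a median of 0.00. Sox4, counted below 0 at −0.05, had 4 other measured probe sets, from −0.30 to 0.80. Isl1, counted below 0 at −0.03, had 0.11 on its other probe set. Atoh1, the factor that sets all secretory lineages of the gut apart, had 348 in transgenic and 248 in wild-type colon, a log2 ratio of 0.49. Hopx had the same rounded ratio, and Runx1t1 had −0.46. Neurog3, the factor that commits a progenitor to the endocrine fate, had 11.6 in transgenic and 12.4 in wild-type colon and was thus under the floor in both, as were Nkx2-2, Pax4, Pax6, Insm1, Rfx3, Mnx1, Lmx1a and Myt1.

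Other gut hormones gave few measurements. Of 12 on the array, 4 were measured, all with ratios below 0 and none at 2-fold: Ppy, for pancreatic polypeptide, at −0.37 (36.8 in transgenic, 47.6 in wild type), Gal at −0.31, Adm at −0.26 and Penk at −0.01. Ghrl, Gip, Nts, Sct, Gast, Iapp, Edn3 and Nppc were under the floor in both pools. Of 24 receptor genes for the products of these cells, 21 were under the floor in both pools. The others were Npy1r, a peptide YY receptor gene, at least 1.60-fold lower, Htr4, a serotonin receptor gene, at a log2 ratio of −0.20, and Htr3a, a serotonin-gated channel gene, at least 1.42-fold higher.

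Among nutrient and metabolite receptors 3 of 8 on the array were measured, with ratios in both directions. Ffar2, a receptor for short-chain fatty acids found on L cells and on leukocytes, had 46.0 in transgenic and 24.4 in wild-type colon, a log2 ratio of 0.91, and its other probe set had 1.09. Olfr78, another short-chain fatty acid receptor gene, had 30.6 in transgenic and 57.6 in wild-type colon, a log2 ratio of −0.91. Slc5a1, the sodium-glucose cotransporter gene, had 0.20, while its other probe set had −0.51.

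**Figure D3:**
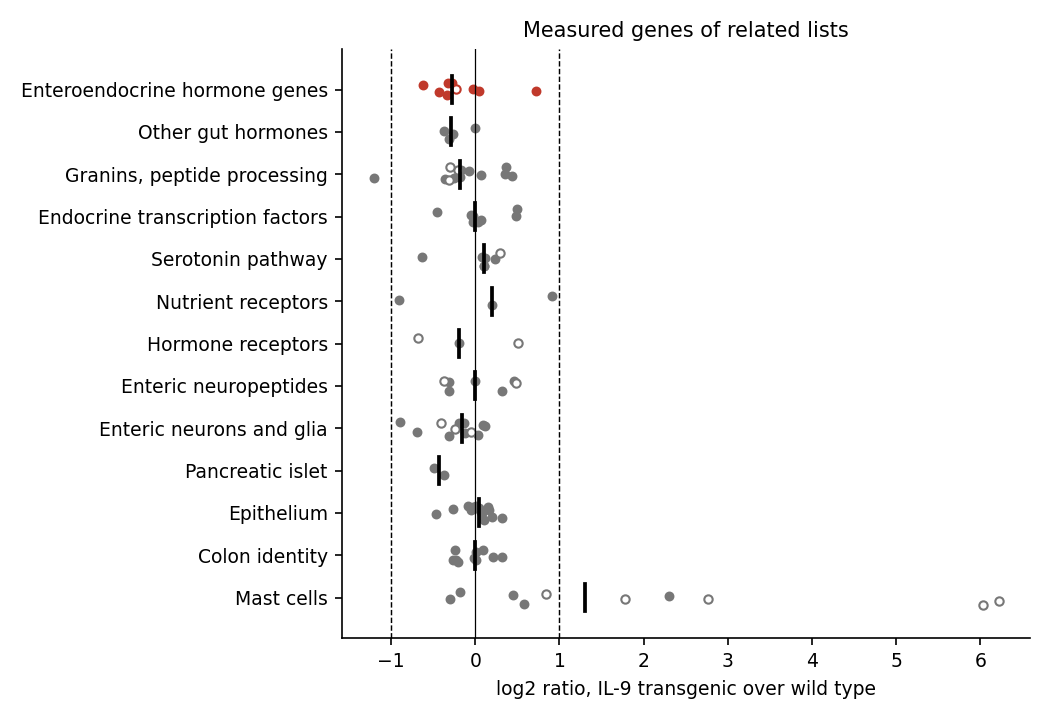
Log2 ratio of IL-9 transgenic over wild type for each measured gene of 13 lists (the pancreatic acinar and small intestinal lists are not drawn), with the list median as a black bar, genes above the floor on both arrays as filled points, bounds as open points and 2-fold as dashed lines. The enteroendocrine genes (red, median −0.28) are drawn within 2-fold, with Neurod1 as a bound. Of the genes drawn 5 mast cell genes lie past 2-fold on the higher side and Rab3b on the lower side. The 10 enteroendocrine genes are left out of the other lists.

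Gcg, Sst and Ppy are made by pancreatic islets as well as by the gut, and the pools differed in pancreatic RNA. Before the floor, 14 pancreatic acinar genes summed to 4527 in transgenic and 35379 in wild-type colon. Of these, 13 were at least 2-fold lower in transgenic colon. Most of the transgenic sum came from the remaining gene, Klk1, with 2835 in transgenic and 2772 in wild-type colon, a log2 ratio of 0.03. Cela1 had 1246 in transgenic and 3554 in wild-type colon. Cela3b and Cela2a were under the floor in transgenic colon, at least 178-fold and 159-fold lower. The defining islet markers were under the floor in both pools. Ins2, for insulin, had 5.34 in transgenic and 11.4 in wild-type colon, and Iapp, for the islet peptide amylin, had 4.99 in transgenic and 5.06 in wild-type colon. Pdx1, Nkx6-1, Slc2a2 and G6pc2 were also under the floor in both pools. Of the islet list only Ttr, at a log2 ratio of −0.50, and Ppy were measured beside Gcg and Sst. The 2 other measured probe sets of Ttr had −0.86 and −0.38.

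Small intestinal genes bear on where along the gut the pieces were cut. Of 10 enterocyte genes on the array 7 were under the floor in both pools, and the 3 measured were Fabp2 at a log2 ratio of 0.41, Rbp2 at −0.75 and Apob, at the floor in wild type, at least 1.21-fold higher. Of 10 measured genes of colon identity 5 had ratios above 0 and 5 below, none reached 2-fold, and the median was −0.01. The carbonic anhydrase gene Car1 had −0.26, the chloride-bicarbonate exchanger gene Slc26a3 −0.24, Hoxa13 −0.22 and Cdx2 0.31. Among epithelial genes the largest ratios in size were those of Cdh1 at −0.46, Krt18 at 0.32, Ocln at −0.27 and Cdhr5 at 0.20.

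**Figure D4:**
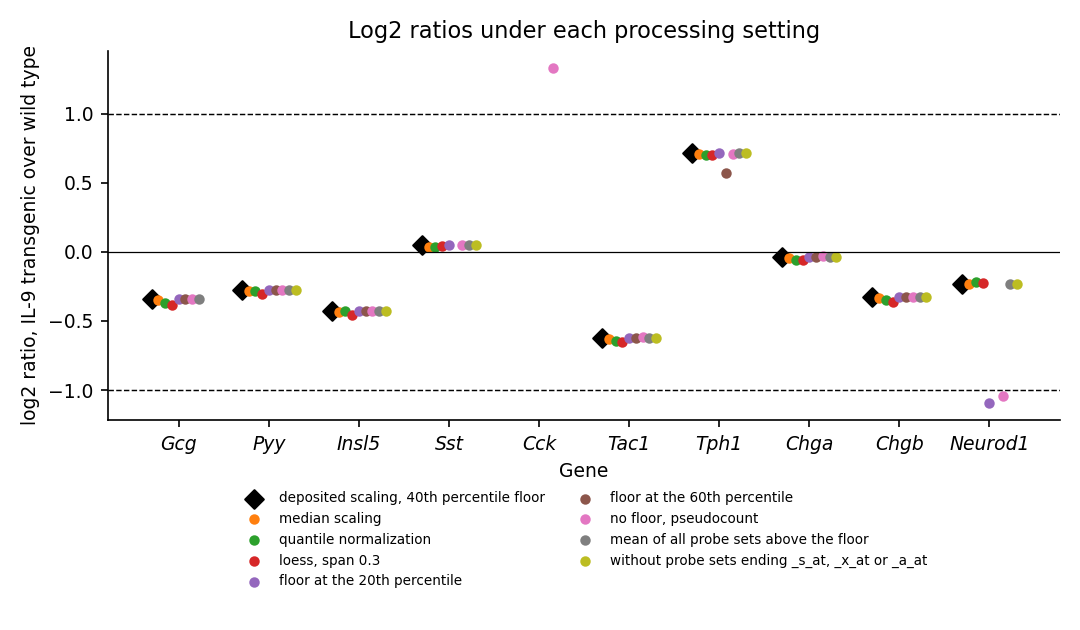
Log2 ratio of IL-9 transgenic over wild type of each enteroendocrine gene under the processing used (black diamonds) and 8 alternatives (coloured points), with 2-fold as dashed lines. The ratios of the 8 genes above the floor on both arrays stay close together, while Neurod1 reaches −1.09 with a lower floor and Cck, which has a value only without a floor, lies at 1.33.

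The ratios of the 8 genes above the floor on both arrays kept their sign in every setting that gave them a value. Insl5 ranged from −0.46 to −0.43, Gcg from −0.38 to −0.34, Pyy from −0.31 to −0.27, Chgb from −0.36 to −0.32 and Tac1 from −0.65 to −0.62. Tph1 ranged from 0.57 to 0.72, its lowest value being a bound under the higher floor. Chga ranged from −0.06 to −0.03 and Sst from 0.04 to 0.05.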

How the data were processed

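Total RNA of distal colon from IL-9 transgenic and wild-type mice, 1 pool of 4 mice each, was measured on 2 Affymetrix arrays. The deposited values are linear intensities. Per the submitters' processing notes they come from MAS5, with no version given in the sources used here. The mean intensity without the lowest and highest 2% was 99.99 on both arrays, the pattern of global scaling. Detection calls were not used.

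Probe sets were named from the platform annotation. Of 22626 non-control probe sets 20380 had 1 symbol, 691 several and 1555 none, and 20351 matched the RefSeq gene table of GRCm38.p6, used for names. The probe set with the highest mean stood for a gene. Log2 ratios (transgenic over wild type) were taken after the floor, in Python 3.11.15 with pandas 2.3.3 and, for loess, statsmodels 0.14.6. A ratio against an array at the floor is a bound and is named as one or printed with the words at least. Single arrays per group allow no test, interval or p-value, and the number of arrays limits the precision.

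The genes named were the 10 enteroendocrine genes and up to 4 measured genes of each list with the largest ratios in size. Genes under the floor in both pools were named too, and Il9 was added as the transgene. Hoxb13, Slc6a4, Tpsab1, Gata2, Scg2, Scg3, Scg5, Sox4, Isl1, Klk1 and Cela1 were added after their values were seen. Not all genes that this rule names are reported. The enteroendocrine genes and the lists were chosen with earlier results of these data known. The scripts were tested on simulated data.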

Additional observations from a re-analysis of the deposited data

How the results depend on the processing

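The alternatives were median scaling, quantile normalization, loess (span 0.3), floors at the 20th and 60th percentiles, no floor with a pseudocount of 0.735, the mean of all probe sets, and leaving out probe sets that can bind several transcripts. Enteroendocrine genes below 0 were 6 of 7 with the 60th percentile floor and 6 of 8 without the probe sets left out. They were 7 of 10 without a floor and 7 of 9 in the other settings. The share of all genes below 0 ran from 42.3% to 47.9% over the settings. The median of the enteroendocrine genes ran from −0.32 to −0.25. The count at least 2-fold lower was 1 of 9 with the 20th percentile floor and 1 of 10 without a floor. In both cases it was Neurod1 (−1.09 and −1.05). The count at least 2-fold higher was 1 of 10 without a floor, namely Cck (1.33). Cck is then read from intensities under the floor of 19.8 on both arrays and Neurod1 from one under it in transgenic colon, and MAS5 ratios of such low values are unstable. With the 20th percentile floor 202 of 10809 genes were at least 2-fold higher and 258 lower, against 64 and 51 of 8346. Without a floor 655 of 12393 genes were higher and 800 lower. With the 60th percentile floor 29 of 5975 genes were higher and 27 lower. No paired analysis was possible because each genotype has 1 array. Leaving out a replicate was not possible either.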
